A study of Homo sapiens with 2 samples.

Results

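A set of 10 genes that mark low oxygen and glucose fermentation (SLC2A1, HK2, LDHA, PGK1, CA9, VEGFA, PDK1, BNIP3, NDRG1 and ADM) was followed in RNA-seq of TFK1 cells, an established human cholangiocarcinoma cell line derived from the bile duct epithelium. They were picked by symbol from the deposited tables, where 1 row was kept for each, and all 10 were among the 56638 genes of the tables and among the 17545 genes with at least 10 reads over both libraries. The negative control (sh-NC) gave 1 library, and cells with knockdown of MBD2, a reader of methylated CpG, gave the other (sh-MBD2). The shRNAs were delivered by lentivirus in the plko.1 vector with antibiotic selection, the labels do not tell which MBD2 shRNA was sequenced, and no treatment or low-oxygen culture is given for either library. With 1 library per condition there is no replicate check on any difference below: log2FC is the ratio of sh-MBD2 to sh-NC after TMM scaling of the read counts, and its 95% confidence interval (CI, exact, Clopper-Pearson) covers counting error only, not the spread between cultures.

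Cells sense oxygen through the HIF transcription factors. Prolyl hydroxylases of the EGLN family mark the HIF alpha subunits for removal by VHL while oxygen is present, and when oxygen is short the alpha subunits pair with ARNT and bind promoters and enhancers that contain the letters ACGTG or GCGTG. Their classical targets bring more glucose into the cell, speed up glycolysis, keep pyruvate out of the mitochondria, export acid and recruit vessels. Many carcinomas use part of this program even where oxygen is not limiting, and the same genes also respond to other inputs, so their RNA is not a direct reading of oxygen.

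The libraries held 14728814 reads counted on genes in sh-MBD2 and 14467406 in sh-NC. MBD2 itself had 365 and 1013 reads, a log2FC of -1.48 (CI -1.66 to -1.31), so the sh-MBD2 library carried the lower RNA of the targeted gene that its label states. Of 6 biliary epithelial markers all were detected, with KRT7 at 1160 and 1327 TPM (a level corrected for gene length and library total), while KRT19 was low, at 15.0 and 9.04 TPM. Leukocyte, fibroblast and endothelial markers, 6 genes each, had at most 5 reads per gene in sh-MBD2 and at most 8 in sh-NC, and PTPRC and LYZ in the first list and PECAM1 and VWF in the last had none in sh-MBD2. Summed, these lists came to 0.417, 0.492 and 0.0686 TPM in sh-MBD2 and 0.894, 0.702 and 0.607 TPM in sh-NC. The 5 NF-kB targets looked at, named because earlier results of these data showed them, were far higher in sh-MBD2, with IL8 at 3052 reads against 27 and NFKBIA at 1870 against 723. Whether that response has a part in any value below was not tested.

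The levels of the 10 genes spanned more than 3 orders of magnitude. In sh-NC, LDHA stood at 2107 TPM, above 99.8% of tested genes, and PGK1 at 399 TPM. BNIP3 (115 TPM), SLC2A1 (87.8 TPM), NDRG1 (64.9 TPM) and ADM (63.0 TPM) formed a middle group, followed by VEGFA at 9.20 TPM and PDK1 at 2.71 TPM. CA9 and HK2, which are among the genes most often read as signs of hypoxia and of high glycolysis, were close to the bottom, at 1.11 and 0.870 TPM, and HK2 was above only 10.2% of tested genes. The order was kept in sh-MBD2 apart from 2 exchanges between neighbors, NDRG1 with ADM and CA9 with HK2; CA9 and HK2 had so few reads that their order is not settled. Summed, the 10 genes took 2850 TPM in sh-NC and 2932 TPM in sh-MBD2.

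**Figure D1:**
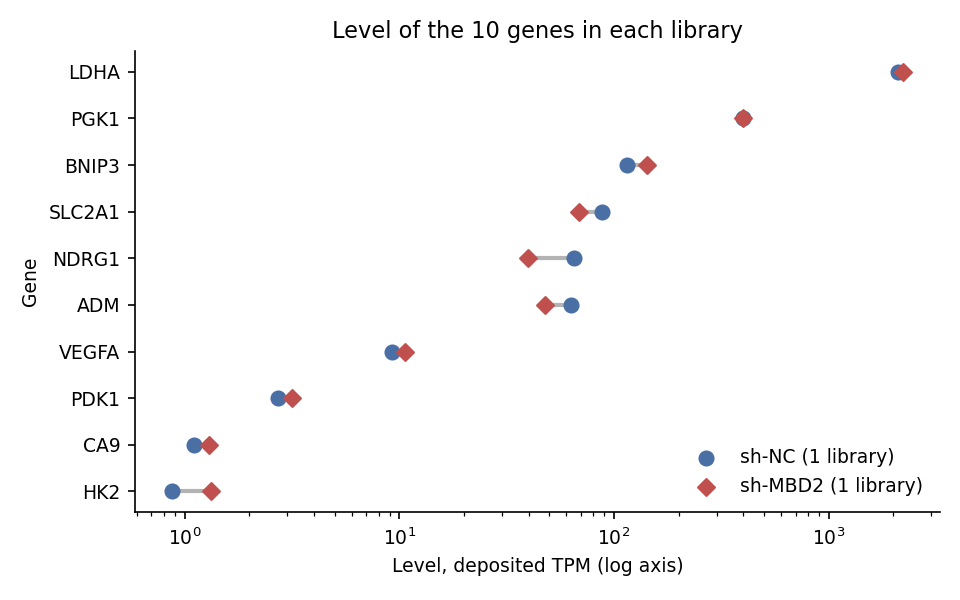
The deposited TPM of each gene (log axis) in the sh-NC library (circles) and the sh-MBD2 library (diamonds), ordered by the level in sh-NC. The distance between genes, from 0.870 TPM for HK2 to 2107 TPM for LDHA in sh-NC, is far larger than the distance between the libraries for any of them.

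RefSeq promoter windows (GRCh38.p14, 250 bases before and 50 after a transcription start) were at hand for 8 of the 10 genes, all but VEGFA and NDRG1. Parts of these windows are shown because the letters ACGTG are the core that HIF reads. Of these 8 genes, 6 held ACGTG on either strand in a window, and SLC2A1 and ADM did not, although both held GCGTG. Counted the same way, with any window of a gene, 32.0% of the 10674 tested genes with a window held ACGTG and 57.5% held GCGTG. The stretches below run 5′ to 3′ on the strand of the gene, end before the start site, and have each ACGTG, on either strand, in capitals. CACGTG reads as ACGTG on both strands and is 1 place. The stretches do not cover every match. A further CACGTG of LDHA lies upstream of its stretch, and a match of PGK1 lies after its start. The upstream window of HK2, with 2 matches, is not printed.
PGK1 (chrX:78104031-78104084, plus strand): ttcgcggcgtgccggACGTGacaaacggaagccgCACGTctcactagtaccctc
LDHA (chr11:18394390-18394509, plus strand): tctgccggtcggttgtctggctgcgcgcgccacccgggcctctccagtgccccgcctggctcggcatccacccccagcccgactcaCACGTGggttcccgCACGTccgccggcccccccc
BNIP3 (chr10:131982037-131982072, minus strand): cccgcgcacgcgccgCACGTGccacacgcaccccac
CA9 (chr9:35673895-35673927, plus strand): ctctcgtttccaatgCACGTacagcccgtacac
PDK1 (chr2:172556058-172556089, plus strand, the downstream of its windows): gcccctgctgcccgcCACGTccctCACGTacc
HK2 (chr2:74834961-74835041, plus strand, the downstream of its windows): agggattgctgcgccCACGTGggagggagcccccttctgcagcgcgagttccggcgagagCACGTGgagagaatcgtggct
A match is only a run of letters and does not show binding. Among genes with a window, the median log2FC was 0.02 for the 3411 with ACGTG and 0.00 for the 7263 without. Since MBD2 reads methylated CpG, the CpG content of the windows was counted as well. The observed to expected ratio was lowest for CA9, at 0.255 with 7 CpG, and highest for BNIP3, at 1.07 with 48 CpG, while the upstream window of PDK1 had the fewest CpG, 6 at a ratio of 0.606. These stood against a median of 14.0 CpG and a ratio of 0.579 over all 35116 windows. Methylation was not measured here.

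None of the 10 genes lay past a log2FC of 1 or -1, where 10.6% of all tested genes lay. HK2 and NDRG1 lay past 0.5 or -0.5, which is 2 of 10 against 26.0% of all tested genes. These shares rest largely on genes with few reads, while most of the 10 are deep. Of the 961 genes above 1 and 890 below -1, 213 and 127 had at least 100 reads. The interquartile range of log2FC was -0.13 to 0.15 among the 6157 genes with at least 500 reads in a library, against -0.25 to 0.23 for all tested genes. Of the 10, 7 were higher in sh-MBD2 and 3 lower, while 48.9% of all tested genes were higher, and the median log2FC was 0.17 against -0.01 for all tested genes. With a minimum of 100 reads, which leaves out HK2 and CA9, the medians were 0.06 and 0.002. The counting interval lay wholly above 0 for LDHA, VEGFA and BNIP3 (3 of 10, against 19.7% of all tested genes) and wholly below 0 for SLC2A1, NDRG1 and ADM (3 of 10, against 18.4%). Because an interval narrows with depth, the shares among the 9254 genes with at least 200 reads in a library are nearer to most of these genes, and they were 27.1% and 24.9%. In RNA of a whole culture, less RNA per cell and fewer cells that make it cannot be told apart.

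Glucose enters through SLC2A1 (GLUT1, ENSG00000117394, chr1:42925375-42959176 on GRCh38, minus strand). It had 1303 reads in sh-MBD2 and 1623 in sh-NC, which is 68.7 and 87.8 TPM. The log2FC stood at -0.33 (CI -0.43 to -0.22), which leaves it at 79.8% of sh-NC. Other carriers of its family stood on either side, more of them higher than lower. SLC2A13, a carrier of myo-inositol, was lower like SLC2A1, with 294 and 396 reads and a log2FC of -0.44 (CI -0.66 to -0.22), and SLC2A7 had 0 and 8 reads. SLC2A3 (GLUT3) was higher and had 2138 and 1525 reads, a log2FC of 0.48 (CI 0.38 to 0.57). SLC2A6, a carrier of intracellular membranes, had 383 and 101 reads, a log2FC of 1.91 (CI 1.59 to 2.25), and like SLC2A7 and SLC2A13 is named after its value was seen. The same holds for SLC2A8 (146 and 104 reads), SLC2A4 (19 and 7) and SLC2A9 (10 and 0), whose intervals also lay wholly above 0. SLC2A11 and SLC2A12 had intervals that include 0. SLC2A1 thus went from 47.9% of the summed TPM of the 14 SLC2A genes in sh-NC to 33.7% in sh-MBD2, and SLC2A3 from 33.8% to 41.6%, so that SLC2A3 was the most abundant of them in sh-MBD2. SLC2A14, a near-identical copy of SLC2A3, had 34 and 10 reads, and the counting may have split reads between the pair.

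Hexokinases trap glucose by phosphorylating it. HK2 (ENSG00000159399, chr2:74833981-74893359, plus strand), the inducible form, had 44 reads in sh-MBD2 and 28 in sh-NC. Its log2FC of 0.63 had a CI from -0.07 to 1.38, so a difference was not detectable at this depth. A gene on the opposite strand that overlaps HK2, RP11-259N19.1, had 15 reads and 1, and as the strand setting of the counting is not given in the sources used here, reads of the 2 genes cannot be told apart. HK2 was 0.873% of the hexokinase TPM in sh-MBD2 and 0.817% in sh-NC. The hexokinase RNA of these cells was HK1, with 1567 and 1308 reads (log2FC 0.25, CI 0.14 to 0.36), and HKDC1, a further member of the family, with 1740 and 964 reads (log2FC 0.84, CI 0.73 to 0.96). HK1 was the larger of these in sh-NC, at 55.2% of the family TPM against 44.0% for HKDC1, and HKDC1 the larger in sh-MBD2, at 54.0% against 44.9%.

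Further down the pathway, PGK1 and LDHA were the deepest of the 10 genes and differed least. PGK1 (ENSG00000102144, chrX:77910739-78129296, plus strand), which catalyzes an ATP-forming step of glycolysis, had 11086 reads in sh-MBD2 and 10859 in sh-NC. Its log2FC was 0.02 (CI -0.02 to 0.06), and its direction turned with TPM in place of scaled counts. LDHA (ENSG00000134333, chr11:18394388-18408425, plus strand), the lactate dehydrogenase subunit that favors lactate formation, had 30673 and 28373 reads, a log2FC of 0.10 (CI 0.08 to 0.13). Its level was 7.4% higher in sh-MBD2, a difference beyond counting error but near the middle of the genes with at least 500 reads in a library, at percentile 67.7 of 6157. LDHB, the subunit of the heart type, had 15197 and 15325 reads, and LDHA was 56.2% of the lactate dehydrogenase TPM in sh-MBD2 and 54.1% in sh-NC. The 6 processed copies of LDHA found by symbol together had 37 and 34 reads, so they hold little of its signal.

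PDK1 (ENSG00000152256, chr2:172555373-172608669, plus strand) phosphorylates pyruvate dehydrogenase and so holds pyruvate back from the citric acid cycle. It had 258 reads in sh-MBD2 and 214 in sh-NC, and its log2FC of 0.26 had a CI from -0.01 to 0.53. AC093818.1, which overlaps PDK1 on the opposite strand, had 15 and 6 reads. PDK1 was the smallest of the 4 kinases per length, at 3.18 and 2.71 TPM, or 1.39% and 1.32% of their sum. PDK4, the isoform known for its response to fasting and fatty acids, had 3972 and 3399 reads and took 84.8% and 83.5% of the sum, with a log2FC of 0.22 (CI 0.15 to 0.28).

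CA9 (ENSG00000107159, chr9:35673856-35681159, plus strand), a carbonic anhydrase of the cell surface and the usual tissue marker of hypoxia, had 12 reads in sh-MBD2 and 10 in sh-NC. At this depth its log2FC of 0.24 has a CI from -1.08 to 1.62, and ARHGEF39, which overlaps it on the opposite strand, had 358 and 383 reads. The related CA12, also hypoxia-induced in several cell types, was the carbonic anhydrase of the cell surface in these cells. It had 16635 reads in sh-MBD2 and 20822 in sh-NC, a log2FC of -0.33 (CI -0.36 to -0.30), and made up 99.4% and 99.7% of the TPM of CA4, CA9, CA12 and CA14.

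Of the secreted factors, VEGFA was slightly higher and ADM lower. VEGFA (ENSG00000112715, chr6:43770184-43786487, plus strand), the main growth factor of vessels, had 738 reads in sh-MBD2 and 624 in sh-NC, a log2FC of 0.23 (CI 0.08 to 0.39), at percentile 84.8 of the genes with at least 500 reads. VEGFC, which acts mainly on lymphatic vessels, had 333 and 140 reads, a log2FC of 1.24 (CI 0.95 to 1.54). Its share of the TPM of the 5 VEGF ligands was 40.3% in sh-MBD2 and 23.6% in sh-NC, while that of VEGFA was 15.2% and 17.9%. ADM (adrenomedullin, ENSG00000148926, chr11:10304680-10307397, plus strand), a vasodilator peptide, had 514 and 663 reads, a log2FC of -0.38 (CI -0.55 to -0.21), or 77.1% of sh-NC. Its receptor was hardly present: CALCRL had 17 and 15 reads, and RAMP1, RAMP2 and RAMP3, the partners CALCRL needs at the membrane, had none in either library, which allows up to 3 reads. The VEGF receptor KDR had none as well, FLT1 had 2 reads and 0, and the coreceptor NRP1 was abundant, with 6005 and 5856 reads.

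BNIP3 and NDRG1, both strong hypoxia markers in many cell lines, stood on opposite sides. BNIP3 (ENSG00000176171, chr10:131966455-131982013, minus strand), a mitochondrial protein that triggers the removal of mitochondria by autophagy, had 1313 reads in sh-MBD2 and 1026 in sh-NC. Its log2FC was 0.35 (CI 0.23 to 0.47), at percentile 92.1 of the genes with at least 500 reads. BNIP3L, its closest relative and also a HIF target, had 1801 and 1829 reads (log2FC -0.03, CI -0.13 to 0.06), so that BNIP3 went from 55.8% to 62.1% of their summed TPM. NDRG1 (ENSG00000104419, chr8:133237171-133302022, minus strand), a stress-induced cytoplasmic protein, had 901 reads in sh-MBD2 and 1441 in sh-NC. Its log2FC of -0.69 (CI -0.81 to -0.57) was the lowest of the 10, at 62.1% of sh-NC and at percentile 1.47 of the genes with at least 500 reads. In its family, NDRG3 had 789 and 932 reads (log2FC -0.25) and NDRG4 340 and 227 (log2FC 0.57, CI 0.33 to 0.82), and the share of NDRG1 in the family TPM went from 46.9% to 37.4%.

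The RNA of the HIF alpha subunits was higher in sh-MBD2. HIF1A had 15109 reads in sh-MBD2 and 9147 in sh-NC, a log2FC of 0.72 (CI 0.68 to 0.75), and EPAS1 (HIF-2 alpha) had 5212 and 3285, a log2FC of 0.66 (CI 0.59 to 0.72). These values stood at percentiles 97.8 and 97.5 of the genes with at least 500 reads in a library. HIF3A was at 2 reads and 0. The 2 abundant subunits kept their ratio, with HIF1A at 79.2% and 78.6% of their summed TPM. Antisense RNAs of HIF1A were low, HIF1A-AS1 at 10 and 1 reads and HIF1A-AS2 at 40 and 22. The partners ARNT (909 and 868 reads, log2FC 0.06) and ARNT2 (847 and 788, log2FC 0.10) had intervals that include 0. Among the brakes, the hydroxylases EGLN1 (log2FC 0.38, CI 0.30 to 0.45) and EGLN3 (0.42, CI 0.15 to 0.69), and VHL (0.24, CI 0.12 to 0.37), were higher, while EGLN2 was at -0.22 with a CI from -0.59 to 0.14. HIF1AN, the asparaginyl hydroxylase, was at -0.15 (CI -0.26 to -0.05). EGLN3 shares its deposited span with SPTSSA on the same strand, which had 4636 and 3136 reads, and the split of reads between them in the counting is not known. Of the 10 listed genes, 9 passed the minimum of 10 reads, 2 lay above a log2FC of 0.5 and none below -0.5, and the median log2FC was 0.24. Over all tested genes 26.0% lay past 0.5 or -0.5, and the median was -0.01. The count of 2 is near that share, which rests largely on genes with few reads. Of the 9, the counting interval lay wholly above 0 for 5, wholly below 0 for 1 and included 0 for 3. The shares wholly above and below 0 were 19.7% and 18.4% of all tested genes. Among those with at least 200 reads in a library they were 27.1% and 24.9%. HIF alpha is regulated mainly at the protein level, which was not measured here.

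The other hypoxia-induced genes also lay on either side of 0. All 30 of that list were tested, 15 were higher and 15 lower, and the median log2FC was 0.04. Their counting intervals lay wholly above 0 for 11 and wholly below 0 for 7. Over all tested genes the shares were 19.7% and 18.4%, and 27.1% and 24.9% among those with at least 200 reads in a library. Past 1 or -1 lay 3 of the 30, near the share of 10.6% of all tested genes. Past a log2FC of 1 were STC2 (a secreted glycoprotein, 802 and 357 reads, log2FC 1.16), LOX (a collagen crosslinker, 46 and 17 reads, 1.40) and BHLHE41 (a transcriptional repressor, 30 reads and 1, 4.34 with a CI from 2.31 to 10.25), the last 2 named because so few passed. STC1, a relative of STC2, was at 0.85 (246 and 135 reads, CI 0.55 to 1.17). At the other end were AK4, a mitochondrial adenylate kinase, with 292 and 526 reads and a log2FC of -0.86 (CI -1.07 to -0.65), EDN1 (endothelin) with 1345 and 2019 reads at -0.59, and INSIG2, a brake of sterol synthesis, at -0.34. PLOD2, P4HA1 and P4HA2, which modify collagen, were at 0.44, 0.31 and 0.32. DDIT4, KDM3A and ANKRD37, all commonly used in hypoxia signatures, were at 0.09, -0.02 and 0.10 with intervals that include 0. ANKRD37 had only 13 and 12 reads, and its wide CI, from -1.14 to 1.37, reaches past -1 and 1.

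The other glycolysis genes had mostly small differences, more of them upward than downward beyond counting error. Of 27 listed enzymes and carriers 23 were tested, none lay past 1 or -1, and the median log2FC was 0.06, with 14 higher and 9 lower. Their counting intervals lay wholly above 0 for 11 and wholly below 0 for 4, against 19.7% and 18.4% of all tested genes and 27.1% and 24.9% of those with at least 200 reads in a library. PFKFB4, which makes the activator of phosphofructokinase, was highest at 0.93 (183 and 95 reads, CI 0.57 to 1.31), before HKDC1 and SLC2A3. PFKFB2 (-0.23), GAPDH (-0.12, CI -0.15 to -0.10) and PFKM (-0.11) were the lowest with at least 100 reads. The lactate carriers SLC16A1 and SLC16A3 were at 0.47 (CI 0.35 to 0.59) and 0.33 (CI 0.18 to 0.48). The abundant enzymes of the lower pathway stayed within 0.21 of 0, with PKM at 0.06, ENO1 at -0.04, TPI1 at 0.07, ALDOA at 0.17 and PGAM1 at 0.21. In all, the list took 13064 TPM in sh-NC and 12849 TPM in sh-MBD2.

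Of the 12 genes around pyruvate entry into mitochondria, 9 were higher and 3 lower, with a median log2FC of 0.10. Over all tested genes, 48.9% were higher. The counting intervals of the 12 lay wholly above 0 for 3 and wholly below 0 for 2, and included 0 for 7. Among all genes with at least 200 reads in a library, 27.1% lay wholly above 0 and 24.9% wholly below. PDP1, the phosphatase that reverses the action of the PDK kinases, was highest at 0.60 (519 and 339 reads, CI 0.41 to 0.81), followed by PDK4 and by DLD at 0.21. MPC2, a subunit of the mitochondrial pyruvate carrier, was lowest at -0.38 (258 and 334 reads), then PDHB at -0.29 and PDK2 at -0.04. Among 14 VEGF and adrenomedullin partners 9 were tested, with a median of 0.17, and besides VEGFC the coreceptor NRP2 was higher, at 0.73 (3984 and 2383 reads, CI 0.66 to 0.81), while NRP1 was at 0.03, VEGFB at 0.06 and FLT4 at 0.26. Of 17 carbonic anhydrases and acid exporters 10 were tested, with a median of -0.04. CA11, which lacks enzyme activity, was lowest at -1.13 (182 and 396 reads, CI -1.39 to -0.87), and the bicarbonate carriers SLC4A4 and SLC4A7 were at -0.67 and -0.42. Of those with at least 100 reads in a library, CA8, also inactive as an enzyme, was highest at 0.52, with CA5B at 0.16 and BSG at 0.02. CA14 and CA2 stood above CA8, at 0.83 (20 and 11 reads) and 0.63 (47 and 30 reads), with intervals that include 0. Of 6 relatives of BNIP3 and NDRG1, 1 was higher (NDRG4) and 5 were lower, with BNIP2 at -0.20, NDRG2 at -0.15 and BNIP1 at -0.09. The counting interval lay wholly above 0 for NDRG4 and wholly below 0 for BNIP2 and NDRG3. It included 0 for NDRG2, BNIP1 and BNIP3L.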

How the data were processed

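RNA of 1 sh-NC and 1 sh-MBD2 library of TFK1 cells was analyzed. The authors deposited raw counts of reads on genes, without normalization. The second deposited table holds TPM, computed by the authors in a way not given in the sources used here, and is handled as a score because repeated rows raise its sum above that of a TPM column. The submitters' processing notes name fastp, HISAT2 2.1.0, featureCounts, DESeq 1.18.1 and GRCh38.p13; strandedness is not given in the sources used here. The deposited start positions of all 10 genes differ from GENCODE 29 (GRCh38), so positions were taken from the latter by Ensembl identifier. Of 63677 rows with an identifier, 1 per symbol and value was kept (56638). Another 46 lines without a gene were dropped.

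Counts were scaled by TMM (edgeR 4.0.16, R 4.3.3), with a prior count of 0.5 and a minimum of 10 reads over both libraries. Intervals used scipy 1.17.1. No p-value is given, since there are no replicates. The script was tested on simulated data. The members and gene lists were chosen with earlier results of these data known. Named are the members, the HIF list, MBD2, and the 3 highest and 3 lowest genes per list with at least 100 reads. 1 gene that this rule picks is not reported here. Others, including abundant family members, antisense genes and markers, and the grouping into families, were chosen after the tables were opened. Alternatives were DESeq2 1.42.0 size factors, total and upper-quartile scaling, log2 of TPM plus 0.1 or 1, prior counts of 2 and 0.1, other count minimums, and adding pseudogene copies. Intervals cover counting error only, as reads are not independent molecules.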

Additional observations from a re-analysis of the deposited data

How the results depend on the processing

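Each of the 10 genes except PGK1 kept its direction under all alternatives; PGK1 ranged from -0.01 to 0.03. NDRG1 ranged from -0.71 to -0.68, SLC2A1 from -0.35 to -0.32, ADM from -0.40 to -0.37, BNIP3 from 0.32 to 0.36, VEGFA from 0.19 to 0.24, PDK1 from 0.17 to 0.27, CA9 from 0.12 to 0.25 and HK2 from 0.32 to 0.64, the low end of HK2 with TPM plus 1. LDHA moved to 0.08 with either TPM pseudocount, just outside its counting interval. No setting put any of the 10 past 1 or -1. With at least 100 reads the median of the 10 genes went from 0.17 to 0.06, and that of the other hypoxia-induced genes from 0.04 to -0.05. Over all genes, 961 lay above 1 and 890 below -1; with TPM plus 1 there were 374 and 340, with at least 1 read 4523 and 4303, and with at least 100 reads 213 and 127; the filters alter the number of genes considered, and adding 1 TPM shrinks the log2FC of weakly expressed genes. With at least 1 read, counts past 1 or -1 became 1 among HIF genes, 3 among other glycolysis genes, and 2 each among VEGF and adrenomedullin partners and among carbonic anhydrases and acid exporters, since genes with 1 to 3 reads enter; with at least 100 reads 1 of the other hypoxia-induced genes lay past 1. No paired analysis was possible because there was a single library of each kind, and for the same reason no library could be left out. Depth limits HK2, CA9 and PDK1 most, and variation between cultures was not measured.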
